A study of Mus musculus with 169 samples.

Results

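Apoe and 8 genes of cellular sterol and lipid handling were followed in microglia sorted from progranulin-deficient and wild-type mice. The 9 genes were chosen by name for their roles, as the lipid carrier (Apoe), the exporters Abca1 and Abcg1, the nuclear receptors Nr1h2 and Nr1h3, the uptake genes Lpl and Cd36, and the oxysterol and cholesteryl ester enzymes Ch25h and Soat1. They are 9 of 20145 gene symbols on the arrays and are covered by 11 of 55681 probes, and all 11 probes passed the filter on dim signals. The study examined loss of progranulin, the lysosomal and secreted protein that Grn encodes. The groups were Grn-/- (KO) microglia of 16 months (4 arrays), Grn+/+ (WT) microglia of 16 months (4 arrays), KO microglia of 4 months (3 arrays) and WT microglia of 4 months (4 arrays). The mice were on a C57B/6J background, and the cells came from Percoll gradients followed by a sort on CD11b, CD45 and Ly6G, per the labels. CD11b and CD45 also mark macrophages and monocytes. The labels do not say whether arrays are separate animals, so p-values measure only the spread between these samples.

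Cholesterol leaves a cell through ABC transporters that load it onto apolipoproteins, and in the brain Apoe is the main carrier. Oxysterols, which form when cholesterol builds up, activate the liver X receptors (LXR), encoded by Nr1h3 (LXR-alpha) and Nr1h2 (LXR-beta), and these with RXR partners induce Abca1, Abcg1 and Apoe. In the brain astrocytes make much of the Apoe, and microglia are known to raise it in ageing and disease.

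RefSeq promoter windows (GRCm38.p6, 250 bases before to 50 after the gene start) were at hand for 7 of the 9 genes, in 10 windows. They were searched on both strands for AGGTCA repeated in the same direction after 4 spacer bases, the element to which LXR and RXR bind, with up to 3 mismatches over both copies. A match was in 1 of these 10 windows, that of Abca1, and in 21.9% of 32851 windows of all genes. The Abca1 window is shown because Abca1 is the LXR target with a window whose level fell at 16 months. It covers chr4:53159846-53160145 on the minus strand, and capitals mark the match, which starts 67 bases upstream and reads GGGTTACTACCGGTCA on the other strand.
Abca1 promoter: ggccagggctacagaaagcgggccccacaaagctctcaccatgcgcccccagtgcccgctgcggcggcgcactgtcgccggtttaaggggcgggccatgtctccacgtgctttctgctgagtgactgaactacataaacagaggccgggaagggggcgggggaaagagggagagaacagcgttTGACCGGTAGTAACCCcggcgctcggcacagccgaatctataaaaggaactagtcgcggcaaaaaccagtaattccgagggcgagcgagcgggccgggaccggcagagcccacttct
The match is a description of letters, and the arrays do not measure binding.

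Levels are given as log2 of the spot signal over the 75th percentile of all spots on the same array (P75), with a floor at -4.94. Levels of different genes come from different probes and were not compared with each other. The WT arrays of 16 months agreed so closely within the pairs 1 and 2 and 3 and 4, by less than the noise of repeat spots, that each pair was counted as 1 replicate, which leaves 13 replicates in all. P75 was 507 to 1037 on KO and 1010 to 1511 on WT arrays of 16 months, and 1072 to 1752 on KO and 1306 to 1649 on WT arrays of 4 months. Probes well above background were 54.2 to 62.7% on KO and 64.6 to 69.8% on WT arrays of 16 months, and 66.3 to 73.0% on KO and 70.3 to 76.5% on WT arrays of 4 months. The number of arrays limits the precision. The 2 ages were hybridised on separate slides, and within a slide KO and WT arrays sat at different positions. Slide and age, and likewise position and genotype, therefore cannot be told apart. Grn was below background on 4 of 4 KO arrays of 16 months and, with KO at the floor, at least 1009.7-fold lower than in WT (adjusted p = 3.75e-07). At 4 months Grn was above background on 3 of 3 KO arrays, at -3.36, -2.90 and -2.06, against 6.32, 6.26, 6.13 and 6.30 in WT.

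The sorted cells were checked against marker genes. All 8 homeostatic microglia markers were above background on every array, and 7 of 8 fell in KO at 16 months. Their summed level was 7.72 to 8.90 in KO and 9.67 to 10.32 in WT at 16 months, and 10.08 to 10.71 in KO and 10.13 to 10.49 in WT at 4 months, where 0 of 8 passed the test. Choroid plexus epithelium markers were measured on these arrays as well, and 4 of 6 rose in KO at 16 months. Their summed level was 9.51 to 10.29 in KO and 8.24 to 8.70 in WT at 16 months, and 7.36 to 8.07 in KO and 3.36 to 6.90 in WT at 4 months. Ttr, the transthyretin gene of choroid plexus, averaged 8.79 in KO and 8.06 in WT at 16 months, and 7.71 in KO and 5.35 in WT at 4 months. It did not pass at 16 months (limma adjusted p = 0.504) or at 4 months (0.471). In bulk samples such as these, fewer cells of a type and less RNA per cell cannot be told apart.

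Apoe, the lipid carrier, was higher in KO at both ages. The level at 16 months was 8.71, 8.88, 8.35 and 8.19 in KO replicates, against 6.84 and 7.06 in WT replicates. At 4 months it was 6.12, 5.76 and 5.98 in KO, against 4.33, 4.40, 4.01 and 3.80 in WT. All KO replicates lay above all WT replicates of the same age. The 4 groups did not overlap, in the order KO at 16 months, WT at 16 months, KO at 4 months and WT at 4 months. The ages lay on separate slides, so in this order age cannot be told apart from slide. The mean was 8.53 ± 0.318 in KO (SD, n = 4) and 6.95 ± 0.154 in WT (SD, n = 2) at 16 months, a difference of 1.58 (SE 0.246, limma adjusted p = 0.00103) or 2.99-fold. At 4 months the mean was 5.95 ± 0.182 in KO (SD, n = 3) and 4.13 ± 0.280 in WT (SD, n = 4), a difference of 1.82 (SE 0.217, limma adjusted p = 0.0360) or 3.53-fold. The change at 16 months minus that at 4 months was -0.24 (SE 0.328, adjusted p = 0.667). The probe is printed on 10 spots, whose SD within an array was 0.0358 to 0.147, which describes the noise of the spots and not the spread between samples.

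The 16-month call for Apoe held under 22 of 22 other settings, with differences of 0.91 (quantile normalization) to 1.70. The 4-month call held under 9 of 22, with differences of 1.71 to 1.92 throughout. It was lost when any 1 of the 7 replicates of 4 months was left out (adjusted p 0.0519 to 0.102), and without KO replicate 1 (0.0509) or 3 (0.0962) of 16 months. It was also lost with quantile normalization (0.0815), when probes had to be above background on each of the 15 arrays (0.0778), and in the fit of the 4-month arrays alone (0.0645).

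The summed markers of choroid plexus and of astrocytes were, like Apoe, higher in KO at both ages, while single astrocyte markers went both ways. The sums of border macrophage and monocyte markers overlapped between KO and WT at 16 months. The choroid plexus sums given above were higher in KO at both ages without overlap. Of its 6 markers, 0 passed at 4 months after adjustment and 6 had an unadjusted p under 0.05, with a median difference of 3.02. Over all features 1927 of 31916 had an unadjusted limma p under 0.05 at 4 months, and 14310 of 31918 at 16 months. Of 8 astrocyte markers, 3 rose in KO at 16 months (Sox9, Aldh1l1 and Aldoc), 1 fell (Slc1a3) and 4 did not pass. The astrocyte sum was 5.56 to 6.71 in KO and 4.97 to 5.39 in WT at 16 months, and 5.31 to 5.47 in KO and 4.85 to 5.27 in WT at 4 months. It was thus higher in KO without overlap at both ages, though 0 of the 8 astrocyte markers passed at 4 months. Gfap, the astrocyte intermediate filament, was above background on 1 of 4 KO and 0 of 4 WT arrays of 16 months, and on 1 of 3 KO and 2 of 4 WT arrays of 4 months. Of 6 border macrophage markers 0 passed limma's adjusted test at either age (1 had an unadjusted p under 0.05 at each). Their sum was 4.30 to 6.03 in KO and 5.20 to 6.22 in WT at 16 months, and 2.26 to 3.03 in KO and 1.21 to 1.84 in WT at 4 months, where KO lay above WT. Of 5 monocyte markers 1 passed, Vcan at 16 months (higher), and their sum overlapped between KO and WT at both ages. Choroid plexus epithelium and astrocytes carry neither CD11b nor CD45, so the sort is meant to remove both. The part of other cells in the Apoe result was not tested.

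The genes whose level was most like that of Apoe over the 13 replicates were Spag16 (Pearson r = 0.985), Lbp (0.985), Spint2 (0.980), Npr3 (0.979) and Tpd52l1 (0.979). These values are a description of replicates that share slides and groups. Spag16 encodes a protein of motile cilia, and Lbp binds bacterial lipopolysaccharide. Spag16 was above background on 4 of 4 KO and 4 of 4 WT arrays of 16 months, and on 3 of 3 KO and 0 of 4 WT arrays of 4 months. Npr3, a natriuretic peptide receptor, passed the test at both ages, with differences of 4.20 at 16 months (SE 0.526, adjusted p = 0.000347) and 3.90 at 4 months (SE 0.464, adjusted p = 0.0360). In WT of 4 months Npr3 was above background on 1 of 4 arrays and lay at or next to the floor (-4.94 to -4.87), so the size of that difference depends on the floor. The 4-month call was lost with quantile normalization (0.0810) and when 1 of 9 replicates was left out (WT 1, 2, 3 or 4 or KO 2 or 3 of 4 months, or KO 1, 3 or 4 of 16 months, adjusted p 0.0509 to 0.104).

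**Figure D1:**
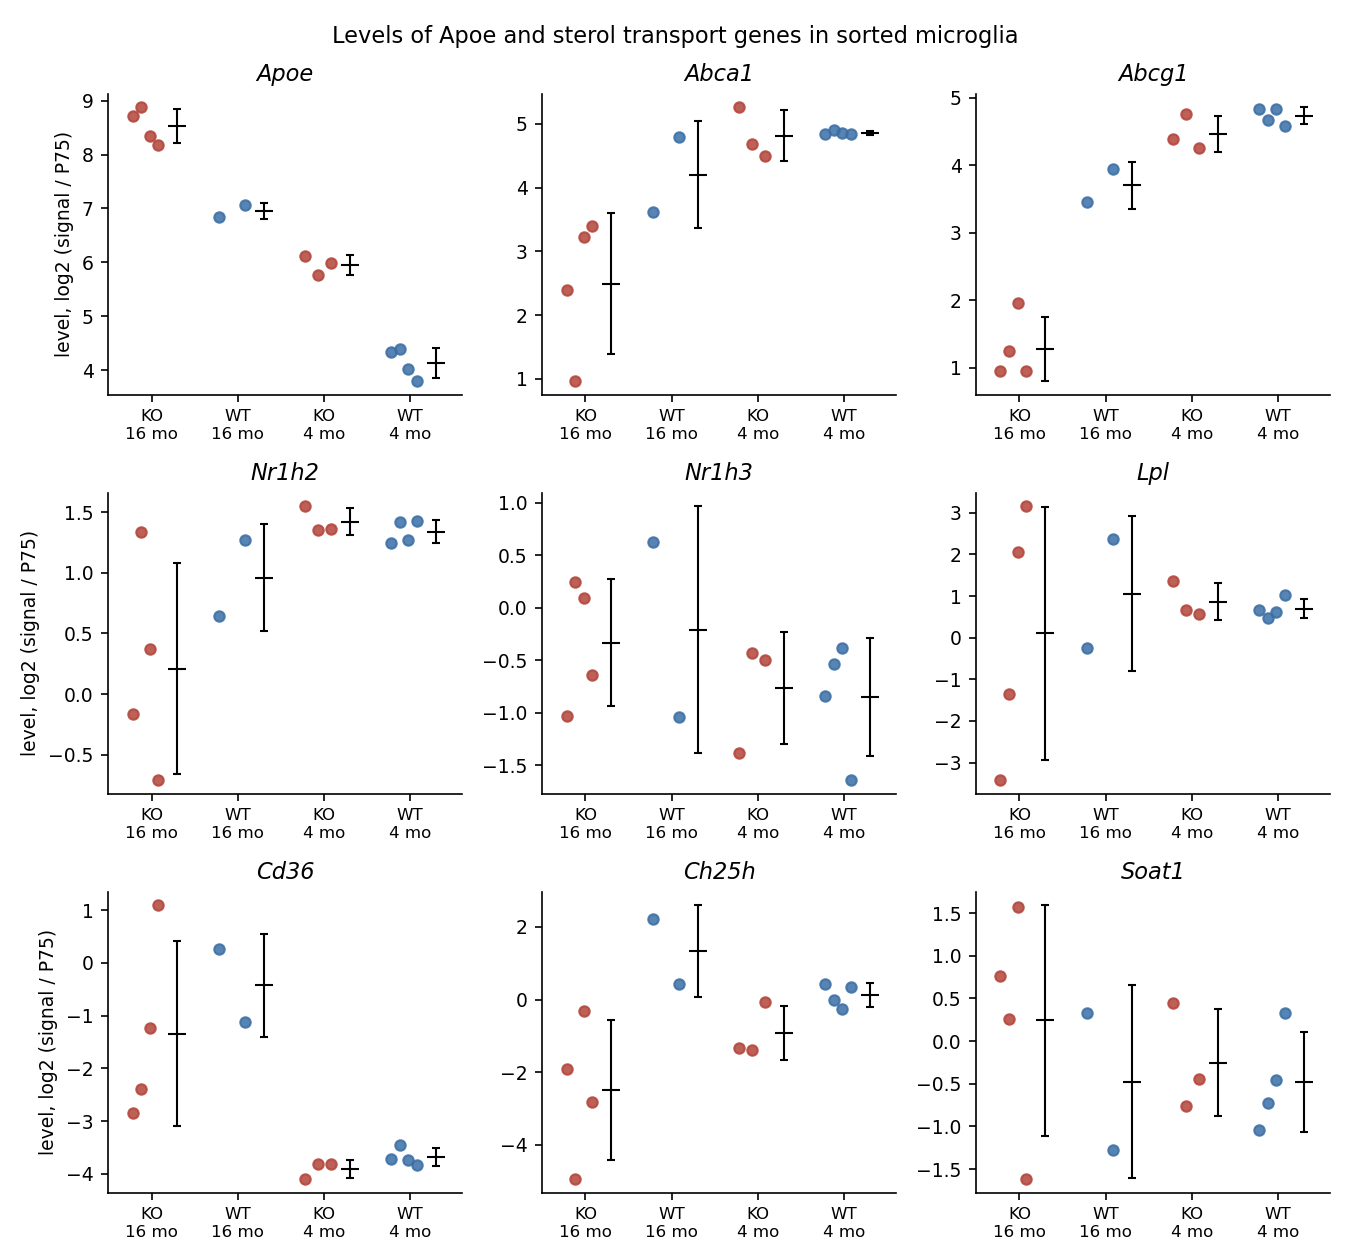
Levels of the 9 genes in each replicate, in log2 units of signal over P75. Points are replicates (KO red, WT blue, 4, 2, 3 and 4 from left to right), and black bars give the mean and SD. Apoe in KO lies above WT at both ages, whereas Abca1, Abcg1 and Ch25h in KO lie below WT at 16 months.

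Both exporters fell in KO at 16 months and did not pass the test at 4 months. Abcg1 encodes a transporter that passes cholesterol to lipidated particles. At 16 months its level was 0.95, 1.25, 1.96 and 0.96 in KO, against 3.46 and 3.95 in WT. At 4 months it was 4.39, 4.77 and 4.26 in KO, against 4.84, 4.67, 4.84 and 4.59 in WT. KO lay below WT without overlap at 16 months, and the genotypes overlapped at 4 months. The mean at 16 months was 1.28 ± 0.474 in KO (SD, n = 4) and 3.71 ± 0.350 in WT (SD, n = 2), a difference of -2.43 (SE 0.293, limma adjusted p = 0.000285), so KO was 5.38-fold lower. At 4 months the difference was -0.26 (SE 0.258, adjusted p = 1). The change at 16 months minus that at 4 months was -2.16 (SE 0.391, limma adjusted p = 0.00757), where 13.4% of all features passed in either direction. Both the 16-month call and this difference between ages held under all other settings tried, 22 and 21 of them.

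Abca1 encodes the transporter that hands cholesterol to lipid-poor apolipoproteins such as Apoe. At 16 months its level was 2.39, 0.96, 3.23 and 3.39 in KO, against 3.61 and 4.79 in WT. At 4 months it was 5.26, 4.68 and 4.49 in KO, against 4.84, 4.91, 4.85 and 4.84 in WT. KO lay below WT at 16 months, with a gap between the groups that was small beside the spread within KO, and at 4 months KO lay on both sides of WT. The mean at 16 months was 2.49 ± 1.11 in KO (SD, n = 4) and 4.20 ± 0.833 in WT (SD, n = 2), a difference of -1.71 (SE 0.593, limma adjusted p = 0.0464), or 3.27-fold lower in KO. The 4-month difference was -0.05 (SE 0.523, adjusted p = 1), and the change at 16 months minus that at 4 months was -1.66 (SE 0.791, adjusted p = 0.187).

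The Abca1 call was lost under 13 of 22 other settings. Without WT replicate 3 and 4 of 16 months the difference was -1.12 (adjusted p = 0.315). Without WT replicate 1 and 2 it was -2.30 (0.0517), and without KO replicate 1 it was -1.68 (0.0807). Leaving out any 1 replicate of 4 months gave adjusted p of 0.0572 to 0.0637, and the 16-month arrays alone gave 0.234. The fall of the homeostatic microglia markers given above accompanied that of both exporters, and its part in them was not tested.

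Neither LXR gene passed the test. Nr1h2 was -0.16, 1.34, 0.37 and -0.71 in KO and 0.65 and 1.27 in WT at 16 months, where the groups overlapped. The WT value of 0.65 rests on 1 array, since the spot on its pair was an outlier. The difference was -0.75 (SE 0.442, adjusted p = 0.219). KO replicate 2 was the high one, and without it the difference was -1.13 (adjusted p = 0.0150). At 4 months Nr1h2 was 1.55, 1.35 and 1.36 in KO and 1.25, 1.42, 1.27 and 1.42 in WT, a difference of 0.08 (SE 0.390, adjusted p = 1). Nr1h3 was -1.03, 0.25, 0.09 and -0.64 in KO and 0.62 and -1.04 in WT at 16 months, so the 2 WT replicates lay on either side of all KO replicates. Its difference was -0.12 at 16 months (SE 0.548, adjusted p = 0.916) and 0.08 at 4 months (SE 0.483, adjusted p = 1). A second Nr1h3 probe, which followed the first over the 13 replicates (r = 0.896), differed by 0.61 at 16 months (SE 0.573, adjusted p = 0.479). The errors leave room for changes of either sign, and no absence of change is shown.

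The uptake genes varied widely among replicates of 16 months and passed at neither age. Lpl encodes lipoprotein lipase, which releases fatty acids from lipoproteins. It was -3.42, -1.35, 2.06 and 3.16 in KO and -0.26 and 2.38 in WT at 16 months, against a narrow spread of 0.56 to 1.37 in KO and 0.47 to 1.02 in WT at 4 months. The 16-month difference was -0.95 (SE 1.51, adjusted p = 0.677). A second Lpl probe followed the first closely over the 13 replicates (r = 0.970), with a difference of -1.23 (SE 1.17, adjusted p = 0.481). The spread among KO replicates was present on both probes. On the second probe KO replicate 1 was not above background and stands at the floor. Cd36 encodes a scavenger receptor for fatty acids and oxidised lipoproteins. It was -2.84, -2.39, -1.23 and 1.09 in KO and 0.27 and -1.12 in WT at 16 months, a difference of -0.91 (SE 0.870, adjusted p = 0.461). KO replicate 4 was the high one, and without it the difference was -1.72 (adjusted p = 0.0203). At 4 months Cd36 lay near the floor, at -4.10 to -3.81 in KO and -3.83 to -3.45 in WT. The 4-month difference was 0.17 for Lpl (SE 1.33) and -0.23 for Cd36 (SE 0.767), both with adjusted p = 1. The fit shares 1 estimate of the spread over the 4 groups, so these errors hold the wide spread of 16 months. Over all settings, the 4-month arrays alone included, the 8 genes other than Apoe had an adjusted p of at least 0.317 at 4 months.

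Of the enzymes, Ch25h fell at 16 months. Ch25h encodes a hydroxylase that makes an oxysterol from cholesterol and is induced by interferon and inflammatory signals in macrophages. At 16 months its level was -1.91, -4.94, -0.33 and -2.82 in KO, against 2.23 and 0.44 in WT. At 4 months it was -1.33, -1.39 and -0.07 in KO, against 0.42, -0.02, -0.25 and 0.36 in WT. KO lay below WT without overlap at 16 months, where KO replicate 2 was not above background and stands at the floor, and the groups overlapped at 4 months. The 16-month mean was -2.50 ± 1.93 in KO (SD, n = 4) and 1.33 ± 1.26 in WT (SD, n = 2), a difference of -3.84 (SE 1.01, limma adjusted p = 0.0146). Without the KO replicate at the floor it was -3.02 (0.0122). The call was lost without WT replicate 1 and 2 (-2.94, adjusted p = 0.137) and in the 16-month arrays alone (0.143). The 4-month difference was -1.06 (SE 0.893, adjusted p = 1), and the change at 16 months minus that at 4 months was -2.78 (SE 1.35, adjusted p = 0.196).

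Soat1, which esterifies cholesterol for storage in droplets, was 0.76, 0.26, 1.57 and -1.62 in KO and 0.33 and -1.27 in WT at 16 months. The groups overlapped, and KO replicate 4 was the lowest of all. The difference was 0.72 (SE 0.792, adjusted p = 0.530) at 16 months and 0.22 (SE 0.698, adjusted p = 1) at 4 months.

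Counted together, 1 of the 9 genes rose (Apoe), 3 fell (Abca1, Abcg1 and Ch25h) and 5 did not pass at 16 months. Over all features 34.4% passed there, 19.3% higher and 15.1% lower in KO, and the 4 of 9 genes called here were not set apart from that share by any test. Of the calls over all features 56.0% were higher in KO, against 43.6% when P75 was taken over probes above background on all arrays. The median difference was -0.91 over the 9 genes and 0.12 over all features, which moved to 0.43 with normexp background correction. KO and WT did not overlap for the same 4 genes, against 24.2% of all features with KO higher and 18.1% with KO lower. At 4 months Apoe alone of the 9 passed, where 0.0251% of all features passed (0.0157% higher and 0.00940% lower), with a median of 0.08 over the 9 genes and 0 over all features. It was also the only one of the 9 without overlap at 4 months, where 5.0% of features had all KO replicates higher and 6.72% all lower. The difference between the ages passed for 1 of 9 (Abcg1, lower), against 6.55% of all features lower and 6.81% higher.

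**Figure D2:**
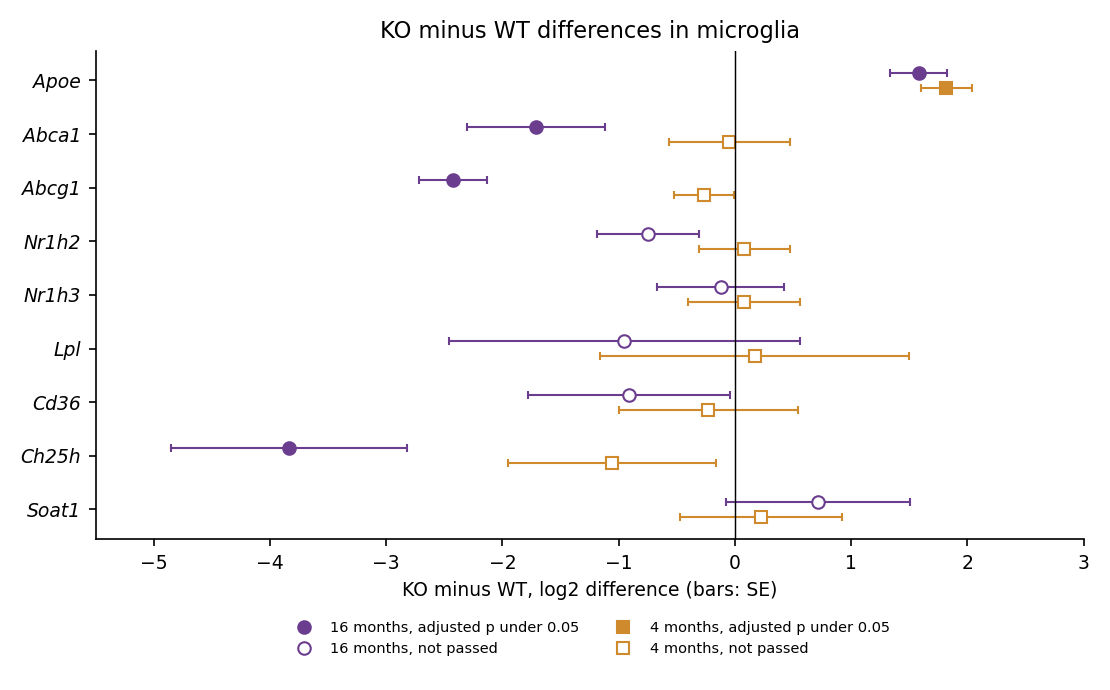
KO minus WT log2 differences of the 9 genes at 16 months (purple circles) and 4 months (orange squares), with bars for the SE of the limma fit and filled symbols for an adjusted p under 0.05. Apoe is filled at both ages at 1.58 and 1.82, and Abca1, Abcg1 and Ch25h are filled at 16 months alone.

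**Figure D3:**
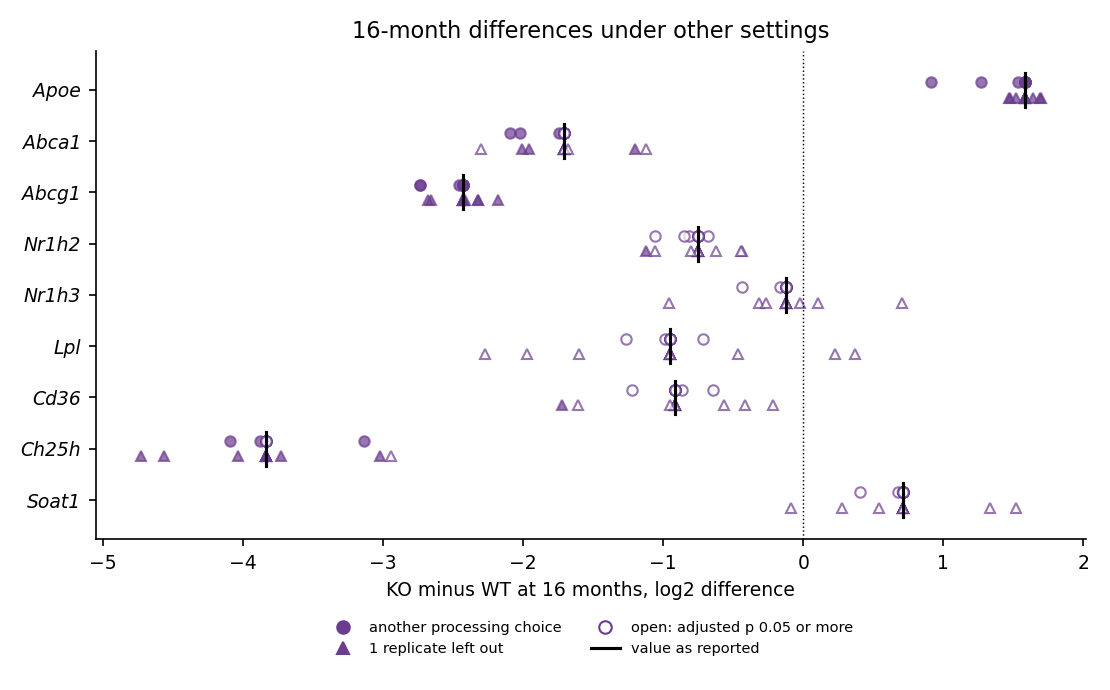
KO minus WT log2 differences of the 9 genes at 16 months under other processing choices (circles) and with 1 replicate left out (triangles), open where the adjusted p was 0.05 or more, beside the value as reported (black line). Apoe and Abcg1 are filled throughout, Abca1 is open under 13 of 22 settings, and Nr1h3, Lpl and Soat1 have values on both sides of 0.

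Another 38 genes of the pathway, listed by role, were set beside the 9. Of these 37 were tested at 16 months, where 9 rose, 5 fell and 23 did not pass, with a median difference of 0.52. Over all features 19.3% rose and 15.1% fell there, with a median of 0.12. The choroid plexus rise and the homeostatic marker fall given above accompanied these changes, and their part in them was not tested. Among LXR partners and targets, Arl4c, a small GTPase of the ARF family, fell by 4.15 (SE 0.479, adjusted p = 0.000237) to 0.48 ± 0.816 in KO, against 4.63 ± 0.934 in WT. Mylip, the ligase that degrades lipoprotein receptors, fell by 2.16 (SE 0.428, adjusted p = 0.00360; 0.0858 in the 16-month arrays alone). Scd2, a fatty acid desaturase, was higher by 2.72 (SE 0.348, adjusted p = 0.000392), and Smpdl3a, a phosphodiesterase of the acid sphingomyelinase family, by 2.51 (SE 0.325, adjusted p = 0.000412). Among named LXR targets that passed at 16 months, Abca1, Abcg1, Arl4c and Mylip were lower in KO and Apoe, Scd2 and Smpdl3a were higher. Srebf1, the LXR-induced regulator of fatty acid synthesis, differed by 0.55 (SE 0.512, adjusted p = 0.450) and did not pass.

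Lipoprotein receptors also split. Vldlr, a receptor for Apoe-containing particles, was 4.92 ± 0.413 in KO and 2.36 ± 1.48 in WT at 16 months, a difference of 2.56 (SE 0.750, adjusted p = 0.0232). Trem2, a microglial receptor that binds Apoe and lipids, was 4.63 ± 1.11 in KO and 7.16 ± 0.635 in WT, a difference of -2.53 (SE 0.566, adjusted p = 0.00664). Scarb1, the receptor for high-density lipoprotein, differed by -2.38 (SE 0.630, adjusted p = 0.0147). The Vldlr, Trem2 and Scarb1 calls were lost without WT replicate 3 and 4 of 16 months (1.52, -2.08 and -2.21, adjusted p 0.238, 0.0651 and 0.0876) and in the 16-month arrays alone (0.0723, 0.108 and 0.141). The Vldlr call was also lost with quantile normalization (2.09, 0.0597), and the Scarb1 call also without WT replicate 1 and 2 (-2.56, 0.0566). The exporter Abca5 was 4.36 ± 0.753 in KO and 1.26 ± 1.51 in WT (SE of the difference 0.705, adjusted p = 0.00711), and was higher by 2.04 without WT replicate 3 and 4 (0.0878); in the 16-month arrays alone its adjusted p was 0.0723. Of the apolipoproteins 0 of 4 passed at 16 months. Clu, another lipid carrier made in brain, was 8.49 ± 0.565 in KO and 6.81 ± 1.06 in WT (adjusted p = 0.0744), and passed in 3 of the other settings, such as leaving out WT replicate 2 of 4 months (0.0362).

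Among genes of oxysterol turnover, ester storage and intracellular lipid transport, 5 of 11 rose and 1 fell at 16 months, beside the shares of all features just given, and no test set the 11 genes apart from those. Fabp5, a fatty acid binding protein, was 5.03 ± 0.619 in KO and 1.37 ± 0.235 in WT at 16 months, a difference of 3.66 (SE 0.358, adjusted p = 0.000120). Plin2, which coats lipid droplets, was higher by 1.57 (SE 0.272, adjusted p = 0.00183). Npc2, which takes cholesterol out of lysosomes, was higher by 1.54 (SE 0.298, adjusted p = 0.00315). The Npc2 call was lost with quantile normalization (0.82, 0.116) and in the 16-month arrays alone (0.0584). Stard3, a sterol transfer protein, differed by -1.81 (SE 0.600, adjusted p = 0.0392), with KO and WT replicates that overlapped. Its call was lost without any 1 of 11 replicates (WT 1, 2, 3 or 4 or KO 1 or 3 of 4 months, or either WT replicate or KO 1, 3 or 4 of 16 months, adjusted p 0.0520 to 0.254), with a difference of -1.31 without WT replicate 3 and 4. It was also lost in the 16-month arrays alone (0.216) and without the filter on dim probes (0.0546). At 4 months 0 of the 37 genes passed limma's adjusted test. An unadjusted limma p under 0.05 was found for 5 of them, all higher in KO, against 1927 of 31916 features in either direction. These 5, chosen after their values were seen, were Nceh1 (1.59, adjusted p = 0.0615, and 0.0282 without either WT replicate of 16 months), Fabp5 (1.75, 0.155), Clu (2.31, 0.381), Smpdl3a (1.13, 0.381) and Vldlr (1.68, 0.733). The difference between the ages passed higher for 2 of the 37 genes, Scd2 (2.30, adjusted p = 0.0116) and Fabp5 (1.91, 0.0262). It passed lower for 1, Arl4c (-4.25, 0.00380). Over all features 6.81% passed higher and 6.55% lower there, and no test set the 37 genes apart from those shares. The Fabp5 one was lost without WT replicate 1 or 2 or KO replicate 1 or 3 of 4 months (adjusted p 0.0502 to 0.0672). It was also lost with P75 taken over probes above background on all arrays (1.67, 0.0542). Without WT replicate 3 and 4 of 16 months, which left 1 WT replicate of that age, the Fabp5 value was 1.75 and did not pass.

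**Figure D4:**
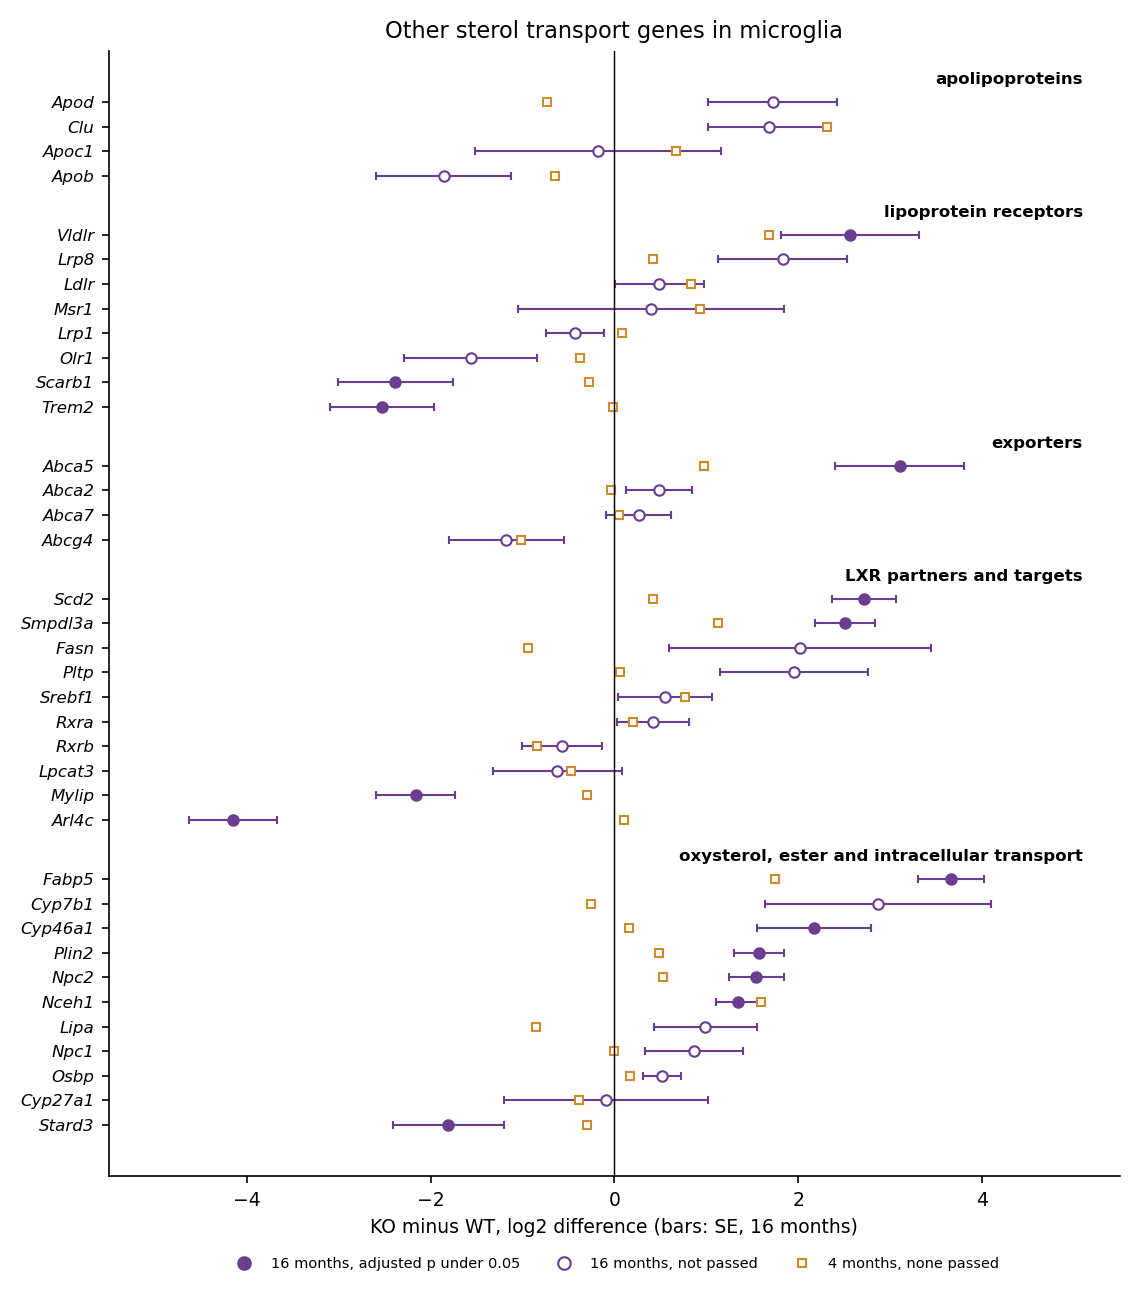
KO minus WT log2 differences of 37 other sterol transport genes, grouped by role, at 16 months (purple circles with SE bars, filled for an adjusted p under 0.05) and at 4 months (open orange squares, of which none passed). At 16 months 9 genes are filled right of 0 and 5 left of it.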

How the data were processed

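Single-colour Agilent arrays measured microglia RNA. The deposited value is the processed signal, a background-subtracted spot intensity written by Agilent Feature Extraction (version 10.7.3.1, array design 028005), per the file headers. R 2.15.3 is named in the submitters' processing notes. Compared with the subtracted intensity in the same files, the 4-month signals also carry a factor that varies among spots and that the 16-month signals lack. The brain arrays of the series were not used here.

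Signals were scaled to each array's 75th percentile and log2-transformed, with a floor of 0.0325 (-4.94 on the log2 scale). Repeat spots were averaged without outlier spots. Probes well above background on at least 3 arrays were kept, and 1 probe per gene (highest mean), which gave 31920 features, 17792 with a symbol. WT arrays of 16 months differed within the pairs 1 and 2 and 3 and 4 by a scaled median absolute deviation of 0.134 and 0.102, below that of repeat spots (SD of the difference 0.240), and each pair was averaged. A limma 3.58.1 model over the 4 groups (R 4.3.3, reading by data.table, version 1.17.8) gave two-sided tests with Benjamini-Hochberg adjustment over all features at 0.05. All adjusted p-values are from limma; the fit was tested on simulated data. Differences are KO minus WT. Named genes were all members, Grn, up to 8 passing genes of the pathway list per comparison, and the 5 most like Apoe; Mylip, Srebf1, Clu, Plin2, Npc2, Stard3 and Nceh1 were added after their values were seen. Members and lists were chosen with earlier results of these data known.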

Additional observations from a re-analysis of the deposited data

Results flagged for a closer look

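Abcg1 differed between the ages: its KO minus WT difference was -2.43 at 16 months and -0.26 at 4 months, and the test of the difference itself gave -2.16 (limma adjusted p = 0.00757). Over other settings it was -2.41 to -1.92 (adjusted p 0.00116 to 0.0471). The ages lay on separate slides, and slide and age cannot be told apart. No replicate of the 9 genes lay apart from its group by Dixon's test in the 18 groups of 4 replicates examined.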

How the results depend on the processing

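Apoe and Abcg1 at 16 months and the Abcg1 difference between ages kept direction and call under every setting run. The WT group of 16 months holds 2 replicates. At 16 months background limits Grn in KO, Ch25h in KO replicate 2 and the second Lpl probe in KO replicate 1, which were not above it. The normexp alternative on mean signals was not run, since the files carry median signals, which were used as an alternative chosen after seeing the data; the brain tissue comparisons were not run, since their probes have no gene names here. The cause of changes below was not tested.

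Of the 9 genes, 3 passed lower at 16 months, against 1 in the 16-month arrays alone and 1 to 4 with a replicate left out. At 4 months 1 passed higher, against 0 with quantile normalization, with probes above background on all 15 arrays, in the 4-month arrays alone and with the replicate block, and 0 to 1 with a replicate left out. Higher calls over all features at 16 months were 6154, and 1749 in that age alone (3835 to 7099 with a replicate left out). Lower calls were 4833, against 2894 with probes above background on all arrays and 1700 in that age alone. At 4 months 5 features passed higher, against 1 (quantile), 0 (all-array filter), 8 (all 15 arrays separate), 23 (that age alone) and 0 (replicate block), and 0 to 40 with a replicate left out (7 without KO replicate 2 of 4 months). Lower ones were 3, against 1 (quantile), 1 (normexp), 0 (all-array filter), 5 (no filter), 8 (15 arrays separate) and 1 (block), and 1 to 52 with a replicate left out. The difference between ages passed higher for 2174, against 3719 (15 arrays separate) and 852 (block), and lower for 2089, against 1120 (block), with 1151 to 3117 and 1282 to 2671 when a replicate was left out (2558 lower without KO replicate 2 of 16 months). Of the other pathway genes 9 rose and 5 fell at 16 months, with 5 to 15 and 2 to 6 under other processing.

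Deviations of same-numbered arrays correlated at -0.037 to -0.028 at 4 months and 0.090 to 0.139 at 16 months, so numbers were not taken as pairs. With the replicate block, calls lost at 16 months were Ch25h (adjusted p = 0.0652), Scarb1 (0.0553) and Stard3 (0.127) and at 4 months Apoe (0.312) and Npr3 (0.280), and Nr1h3 turned to -0.18 at 4 months and 0.060 between ages. Between ages Scd2 and Fabp5 had 0.0682 and 0.0888 with the block, and 0.0509 and 0.0596 with quantile normalization.

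Apart from the block and normexp values given here, differences that changed sign did so when a replicate was left out, with the ranges -0.95 to 0.71 (Nr1h3), -2.27 to 0.37 (Lpl) and -0.085 to 1.52 (Soat1) at 16 months, where Srebf1 was -0.012 without WT replicate 1 and 2; with a KO replicate left out Nr1h3 reached -0.32 to 0.11 and Lpl -1.97 to 0.23. At 4 months they were -0.27 to 0.11 (Abca1), -0.18 to 0.39 (Nr1h3), -0.085 to 0.32 (Lpl), -0.13 to 0.49 (Soat1), -0.0051 to 0.17 (Arl4c) and -0.13 to 0.10 (Trem2). Between ages they were -1.03 to 0.63 (Nr1h3), -2.44 to 0.20 (Lpl), -1.50 to 0.011 (Cd36), -0.31 to 1.29 (Soat1) and -0.16 to 1.93 (Vldlr). Without a KO replicate of 4 months Nr1h3 there was as low as -0.51, and without a KO replicate of 16 months Lpl was -2.14 to 0.058. With normexp, Trem2 at 4 months was 0.14 and Grn between ages 0.17.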
